A study of Mus musculus with 2 samples.

Results

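Olfactory, vomeronasal and taste receptors are the chemical sensors of the nose and tongue, and the 636 of them that the array named were read here in kidney RNA. They were taken as every gene whose symbol in the platform's annotation begins with Olfr, Vmn1r, Vmn2r, Tas1r or Tas2r, out of 10208 named genes in all. They comprised 526 olfactory receptors (Olfr), 99 vomeronasal type 1 receptors (Vmn1r), 5 vomeronasal type 2 receptors (Vmn2r), 3 taste type 1 receptors (Tas1r) and 3 taste type 2 receptors (Tas2r). Each had 1 probe, and all 636 were found in RefSeq's mouse genes (assembly GRCm38.p6) under the same symbol. The RNA came from the kidney of 1 Mxi1 -/- mouse, the experiment, and 1 Mxi1 +/+ mouse, the control, both labelled 1Y and each hybridised to 1 single-colour CodeLink oligonucleotide array. The labels do not give the strain, the sex or the part of Mxi1 that was deleted. The Mxi1 protein pairs with MAX and represses E-box genes that MYC activates. The Mxi1 probe, whose place relative to the deletion is not given, read 1.69 in Mxi1 -/- against 4.31 in Mxi1 +/+.

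These receptors are membrane proteins that pass a signal through G proteins. In the nose, each olfactory sensory neuron expresses a single olfactory receptor type, which acts through the G protein subunit Gnal, the adenylyl cyclase Adcy3 and a cyclic nucleotide-gated channel. Vomeronasal neurons detect pheromones, with type 1 receptors coupled to Gnai2 and type 2 receptors to Gnao1. Tas1r proteins pair into sweet and umami receptors, while Tas2r proteins detect bitter compounds, and both signal through Trpm5 in taste cells. A small number of olfactory receptors are also known from kidney, among them Olfr78, a receptor for short-chain fatty acids on renin-storing cells of the afferent arteriole.

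Each genotype had 1 mouse, so the spread between animals is unknown, no test, standard error or p-value was possible, and each fold describes these 2 arrays. The deposited values are linear intensities, and the array median was 0.935 in Mxi1 -/- and 0.929 in Mxi1 +/+. A noise floor was set at 3 times the root mean square of the values below 0 in each array, and it was 0.156 in Mxi1 -/- and 0.102 in Mxi1 +/+. A reading also depends on how strongly a given probe binds, so the order of levels among receptors describes probes as well as transcripts. The sources used here give no probe sequences, and many receptors have close relatives, so which relatives a probe can also bind was not tested. The tissue label was borne out by kidney markers: all 11 measured read above the array median in both kidneys, where 55.5% of all named genes did. The aspartic protease Napsa read 770 in Mxi1 -/- and 473 in Mxi1 +/+, and the sodium-phosphate cotransporter Slc34a1 read 51.2 in Mxi1 -/- and 42.8 in Mxi1 +/+. The 4 measured brown fat markers were lower in Mxi1 -/-, and all 4 were above the median in Mxi1 +/+. Ucp1 read 0.036 in Mxi1 -/-, under the floor, and 8.52 in Mxi1 +/+, at least 55.0-fold lower. Cidea read 0.312 in Mxi1 -/- and 6.20 in Mxi1 +/+, Car3 read 4.33 and 29.3, and Pparg read 0.964 and 2.65. The part of these markers in any receptor difference was not tested.

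Most receptor probes read low, but only a minority lay under the noise floor. In Mxi1 -/- 141 of 635 receptors with a value (22.2%) were at or under it. On that array 10.5% of the other named genes were, and 20.1% of unnamed probes, those without a gene name. In Mxi1 +/+ the count was 97 of 634 (15.3%), against 6.26% of the other named genes and 13.7% of unnamed probes. Both readings were at or under the floor for 58 of the 634 receptors read in both kidneys (9.15%). The same held for 3.63% of the other named genes and 8.12% of unnamed probes. The wider zone up to 3 times the floor held 60.3% of the receptors in Mxi1 -/- and 49.8% in Mxi1 +/+, compared with 28.3% and 21.9% of the other named genes. Of unnamed probes it held 46.1% in Mxi1 -/- and 40.2% in Mxi1 +/+. The median receptor read 0.341 in Mxi1 -/-, between these lines, and 0.308 in Mxi1 +/+, at about the upper line. These counts follow the multiple chosen for the floor: at 2 and 5 times the root mean square they were 92 and 252 in Mxi1 -/- and 54 and 189 in Mxi1 +/+.

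The 2 large families differed in level. The median olfactory receptor read 0.389 in Mxi1 -/- and 0.333 in Mxi1 +/+, and the median type 1 vomeronasal receptor 0.216 in Mxi1 -/- and 0.203 in Mxi1 +/+. Under the floor lay 105 of 526 olfactory receptors in Mxi1 -/- and 77 in Mxi1 +/+ (14.6%), while 32.7% of type 1 vomeronasal receptors were under it in Mxi1 -/- and 19.6% in Mxi1 +/+. In the plot of cumulative levels the vomeronasal curve stands to the left of the olfactory curve in both kidneys. No test of the difference between families was made, since all probes share the same 2 hybridisations.

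**Figure D1:**
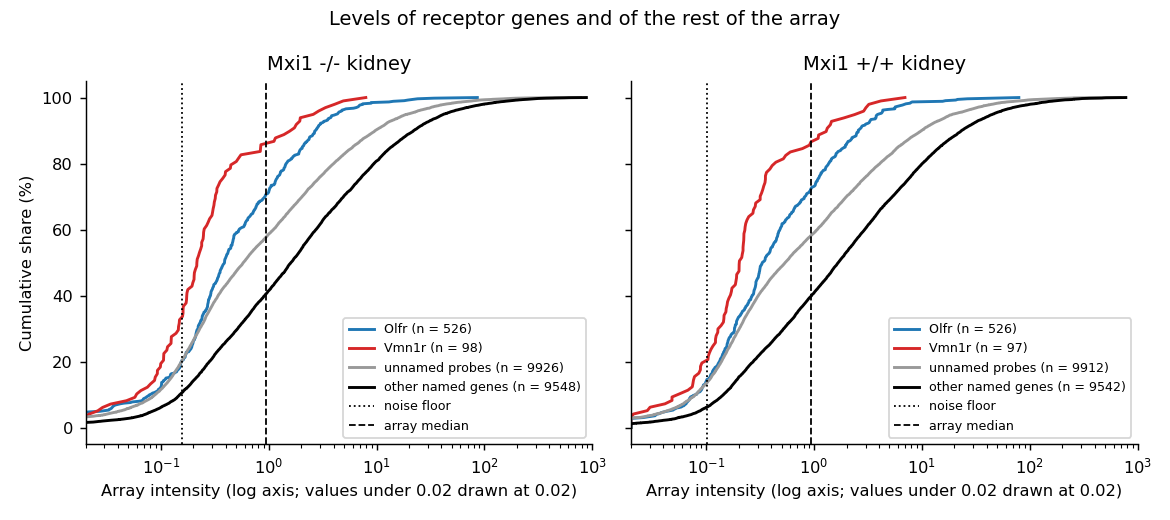
Cumulative share of probes or genes (%) against array intensity (log axis) in the Mxi1 -/- kidney (left) and the Mxi1 +/+ kidney (right), for olfactory receptors, type 1 vomeronasal receptors, unnamed probes and all other named genes. Dotted lines mark the noise floor (0.156 and 0.102) and dashed lines the array median (0.935 and 0.929); both receptor curves lie left of the curve of other named genes.

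The receptors above the array median were not few. In both kidneys 158 of the 636 (24.8%) read above it, where 55.5% of all named genes and 47.9% of all probes did so. A further 20 of the 634 receptors read in both kidneys were above the median in 1 kidney only, 15 of them in Mxi1 -/- and 5 in Mxi1 +/+. Among all named genes 427 of 10166 were above it in 1 kidney only, and their split by kidney was not counted. Counted in each kidney alone, 173 receptors were above it in Mxi1 -/- and 163 in Mxi1 +/+, and 5865 and 5916 of all named genes. The remaining 456 receptors were not above it in either. Neither line can tell whether these genes are mostly silent in kidney. The floor was set from the values below 0 alone, and 455 receptors read above it in both kidneys and 58 under it in both. A reading above the floor or the median is also not proof of the receptor's own transcript, as the probes' binding to relatives was not tested. Of the 158, 7 had a level above 10, 13 a level between 5 and 10, 66 a level between 2 and 5, and 72 a level under 2, where the level is the geometric mean of both readings. With the line at the 75th percentile of each array in place of the median, 21 receptors remained above it in both. At the edge of the median line, Olfr1444 (0.938 in Mxi1 -/- and 0.943 in Mxi1 +/+) and Vmn1r230 (1.15 and 0.937) were just inside, and Olfr214 (1.05 and 0.926) and Olfr352 (1.14 and 0.913) were just outside.

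By family, 142 of 526 olfactory receptors (27.0%) read above the median in both kidneys. So did 14 of 99 type 1 vomeronasal receptors (14.1%), none of the 5 type 2 vomeronasal receptors, and 1 of 3 in each taste family.

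Most receptors above both medians had similar readings in the 2 kidneys, as did most genes at that level. Of the 158, 156 (98.7%) lay within 1.5-fold, where 93.3% of all named genes above both medians did. Of the 20 receptors above the median in 1 kidney only, 16 lay within 1.5-fold and 2 differed by over 4-fold, counts that were not made over all named genes. Across these 158 the log2 intensities correlated at r = 0.98, and across the 297 other receptors above both floors at r = 0.711 (Pearson, across genes, which share 2 hybridisations and are not independent replicates). The other named genes gave 0.982 and 0.729 for the same split. Of the 20 brightest receptors in each array, 18 were the same genes.

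**Figure D2:**
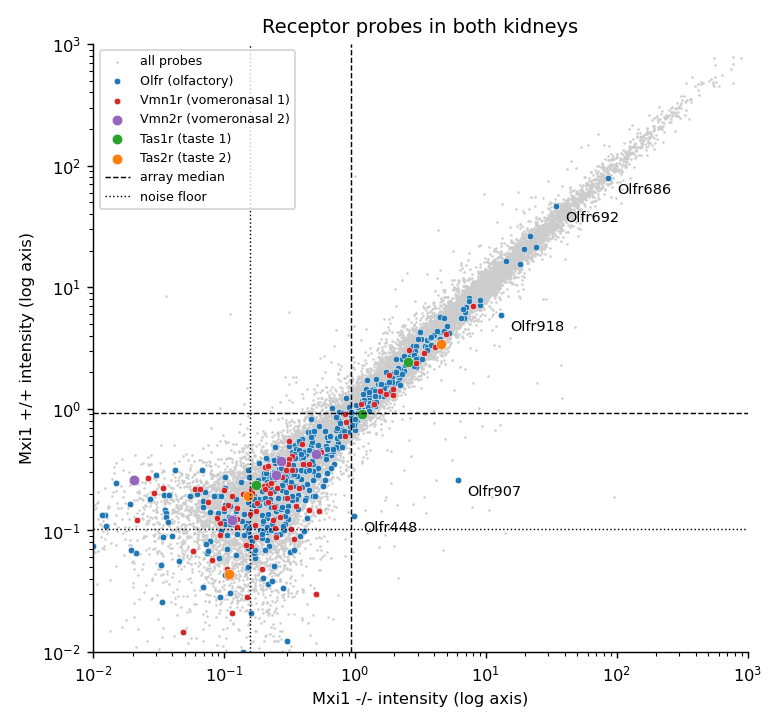
Intensity of each probe in the Mxi1 -/- kidney (horizontal, log axis) against the Mxi1 +/+ kidney (vertical, log axis), with receptor families in colour over all probes in grey; readings under 0.01 are not drawn. Dashed lines are the array medians and dotted lines the noise floors; receptors above both medians follow the diagonal, apart from Olfr918 (13.04 and 5.92), while Olfr907 (6.12 and 0.261) and Olfr448 (0.987 and 0.133) stand below it.

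The brightest receptor was Olfr686, with 86.1 in Mxi1 -/- and 79.2 in Mxi1 +/+ (probe 9583). Olfr692 (probe 19354) followed with 34.2 in Mxi1 -/- and 46.8 in Mxi1 +/+, a 1.37-fold lower reading in Mxi1 -/-. Both belong to the chromosome 7 cluster that runs from Olfr544 to Olfr692 among the measured genes, which is known to hold the class I, or fish-like, olfactory receptors. Next came Olfr491 (21.7 in Mxi1 -/- and 26.4 in Mxi1 +/+), Olfr812 (24.0 and 21.4), Olfr513 (19.6 and 20.6), Olfr796 (18.1 and 15.6) and Olfr1184 (14.3 and 16.5). These 7 were the receptors with a level above 10, and each differed by less than 1.5-fold between the kidneys. The 13 with a level between 5 and 10 included Olfr918, Olfr330, Olfr516, Olfr657, Olfr623, Olfr798, Olfr398, Olfr541, Olfr71 and Olfr65. The vomeronasal receptor Vmn1r4 was also among them, at 7.95 in Mxi1 -/- and 6.96 in Mxi1 +/+.

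**Figure D3:**
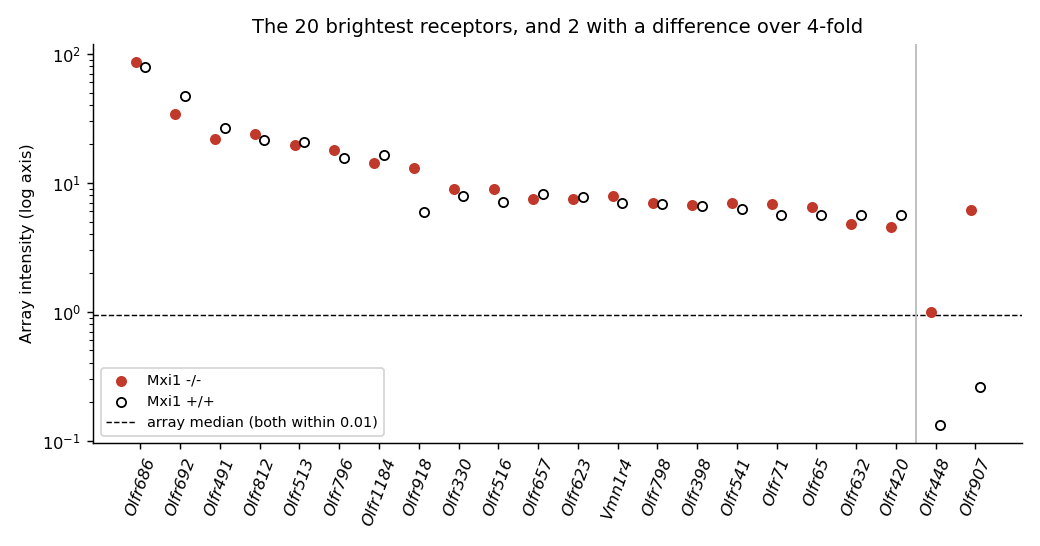
Array intensity (log axis) of the 20 receptors with the highest level among those above both medians, and right of the grey line the 2 receptors above the median in 1 kidney that differed by over 4-fold; filled points are Mxi1 -/- and open points Mxi1 +/+, 1 mouse each. Among the 20 the points nearly coincide except for Olfr918 (13.04 in Mxi1 -/- and 5.92 in Mxi1 +/+); Olfr448 and Olfr907 are at or above the dashed median in Mxi1 -/- and far below it in Mxi1 +/+.

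The sequence around the annotated start was examined for 560 of the 636 receptors that matched RefSeq's table of start regions (GRCm38.p6, 250 bases before to 50 after the start; the first entry of each gene). In 390 of these (69.6%) the annotated start coincided with an ATG, against 6.75% of the 27025 genes in the table. For most receptors the window is thus the stretch before the coding sequence and 50 bases from its ATG on, and may not be the promoter. Both strands were searched for TAATTA, the core that homeodomain proteins bind, and for CACGTG, the E-box that MAX dimers bind; each reads the same on both strands and they do not overlap. TAATTA stood in 90 receptor windows (16.1%) against 5.31% of all windows, and CACGTG in 12 (2.14%) against 7.24%. The windows compared were not matched for base composition or for an ATG at the start, so these shares are not a test of enrichment. The share with TAATTA was 16.4% of the 134 receptors above both medians with a window and 16.0% of the 426 others, and with CACGTG 1.49% and 2.35%. A match is a string of letters and not evidence of binding. The windows of Olfr686 and Olfr692 are shown as those of the brightest receptors, that of Olfr918 because its reading differed most among receptors above both medians, and that of Olfr1402 (0.724 in Mxi1 -/- and 0.85 in Mxi1 +/+) as one with the E-box. They lie at chr7:105204292-105204591 (minus strand), chr7:105368078-105368377 (plus), chr9:38673432-38673731 (minus) and chr3:97411130-97411429 (minus), are written 5′ to 3′ on the gene's strand, and carry TAATTA or CACGTG in capitals. Olfr692 holds 2 copies of TAATTA, and Olfr686 and Olfr918 hold neither string. Olfr1402 holds 1 CACGTG, which lies after the ATG at its annotated start and not before it.
Olfr686: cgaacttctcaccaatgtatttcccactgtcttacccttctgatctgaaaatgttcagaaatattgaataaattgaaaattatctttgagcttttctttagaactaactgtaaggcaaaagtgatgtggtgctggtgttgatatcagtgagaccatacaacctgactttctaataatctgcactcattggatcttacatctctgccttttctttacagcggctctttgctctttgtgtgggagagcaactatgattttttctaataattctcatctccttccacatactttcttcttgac
Olfr692: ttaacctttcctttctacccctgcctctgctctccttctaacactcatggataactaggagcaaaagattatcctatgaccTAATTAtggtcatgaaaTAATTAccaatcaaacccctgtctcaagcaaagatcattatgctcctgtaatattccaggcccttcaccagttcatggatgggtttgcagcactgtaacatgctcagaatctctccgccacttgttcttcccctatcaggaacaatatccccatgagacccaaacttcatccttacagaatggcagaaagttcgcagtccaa
Olfr918: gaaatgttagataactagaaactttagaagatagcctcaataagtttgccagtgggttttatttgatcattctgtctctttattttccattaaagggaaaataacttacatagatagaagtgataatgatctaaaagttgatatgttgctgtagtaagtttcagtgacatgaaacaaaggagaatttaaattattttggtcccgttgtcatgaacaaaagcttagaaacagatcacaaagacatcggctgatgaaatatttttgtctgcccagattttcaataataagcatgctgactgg
Olfr1402: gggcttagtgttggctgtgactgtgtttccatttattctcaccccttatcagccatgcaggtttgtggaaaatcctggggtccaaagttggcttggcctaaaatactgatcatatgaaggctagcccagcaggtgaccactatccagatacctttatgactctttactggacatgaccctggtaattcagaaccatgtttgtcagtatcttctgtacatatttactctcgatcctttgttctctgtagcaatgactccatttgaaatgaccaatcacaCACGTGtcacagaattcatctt

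Adjacent measured receptors, which can have other genes between them, shared little of their level. Receptor genes lie in clusters, and with a gap of up to 1 Mb allowed, the 636 fell into 61 groups, of which 21 held at least 10 measured receptors and 551 in all. The share above both medians in these 21 groups ranged between 0 and 40.9%, with 24.8% over all receptors. The largest, on chromosome 2 (Olfr992 to Olfr1272), had 19 of 112 (17.0%), and the class I cluster on chromosome 7 had 31 of 89 (34.8%). The next chromosome 7 group (Olfr695 to Olfr518) had 14 of 40, the chromosome 10 group (Olfr763 to Olfr827) 9 of 25 and the chromosome 19 group (Olfr1417 to Olfr1502) 9 of 22. The chromosome 9 group from Olfr829 to Olfr39 had none of 14, and the mainly vomeronasal group on chromosome 13 had 2 of 26. Over 575 pairs of adjacent measured receptors, both were above the median in 41, 1 of the pair in 207 and neither in 327, and their log2 levels correlated at r = 0.078 (526 pairs with levels, across genes of the same 2 arrays).

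Several bright receptors stood beside dim ones. Olfr691, the gene directly next to Olfr692, read 0.0778 in Mxi1 -/- and 0.0813 in Mxi1 +/+, under the floor in both. Olfr398 (6.70 in Mxi1 -/- and 6.60 in Mxi1 +/+) lay between Olfr397 (0.162 and 0.0211) and Olfr139 (0.401 and 0.4). Higher readings at consecutive measured receptors did occur on chromosome 7, at Olfr64 (2.57 in Mxi1 -/- and 2.39 in Mxi1 +/+), Olfr65 (6.48 and 5.62), Olfr632 (4.78 and 5.63) and Olfr633 (1.38 and 1.14). Olfr794, Olfr796 and Olfr798 on chromosome 10 formed another such set, at 1.23, 18.1 and 6.99 in Mxi1 -/- and 1.73, 15.6 and 6.83 in Mxi1 +/+. Between Olfr65 and Olfr632 lies 1 other RefSeq gene, as also between Olfr794 and Olfr796 and between Olfr796 and Olfr798. Of the 636 receptors 24 overlap another RefSeq gene, 5 of them above both medians, and for 2 the other gene had a reading. Vmn1r4 overlaps the nucleotidase gene Nt5c3, which read 27.7 in Mxi1 -/- and 30.4 in Mxi1 +/+, and Tas1r3 overlaps the Wnt signalling gene Dvl1, which read 2.50 and 1.86. Which transcript these probes bound was not tested.

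**Figure D4:**
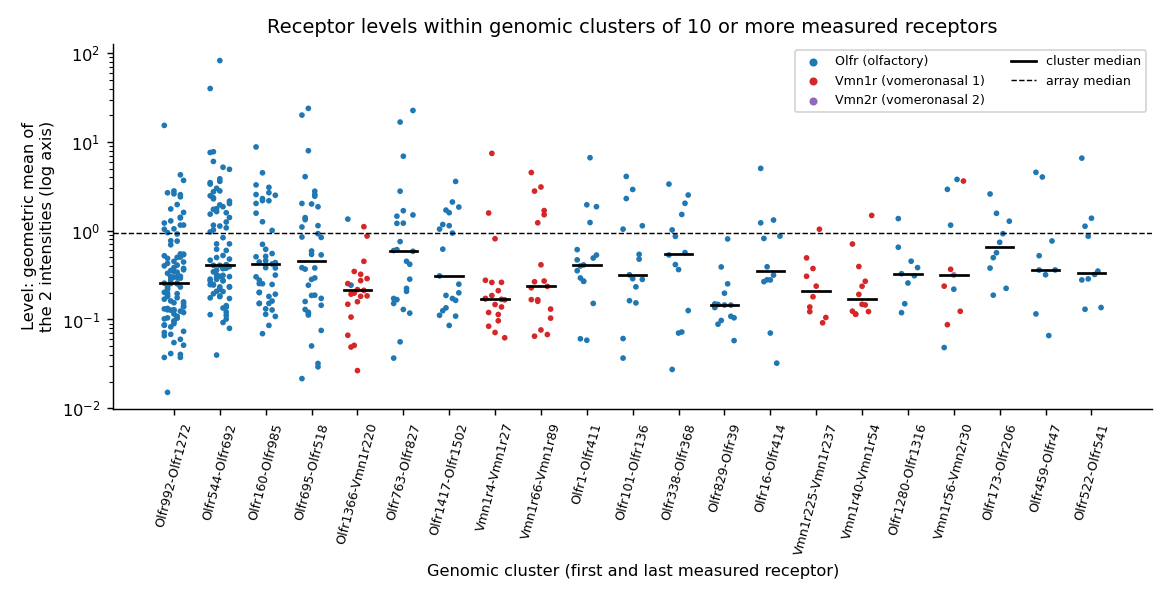
Level of each receptor (geometric mean of the Mxi1 -/- and Mxi1 +/+ intensities, log axis) in the 21 genomic groups with 10 or more measured receptors, ordered by size and named by their first and last measured gene; receptors with a value at or below 0 are not drawn. Black bars are group medians and the dashed line is the array median; every group median lies under that line, and single bright receptors rise out of most groups.

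Of 8 olfactory receptors listed as known from kidney, 4 had a named probe, and 3 of these were above both medians. Of all receptors 24.8% were above both, and of all named genes 55.5%, but 4 probes are too few to set against these shares. Olfr78 read 2.04 in Mxi1 -/- and 2.56 in Mxi1 +/+ (log2 difference -0.33), and it overlaps its relative Olfr560 in RefSeq. Olfr1392 read 4.35 in Mxi1 -/- and 4.26 in Mxi1 +/+, while its closest measured neighbours Olfr1394 (0.31 and 0.491) and Olfr1389 (0.878 and 0.926) were below the median. Olfr1426 read 1.17 in Mxi1 -/- and 1.18 in Mxi1 +/+. Olfr691 was the exception, under the floor in both kidneys as given above.

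Among taste receptors, Tas2r119, a bitter receptor, read 4.50 in Mxi1 -/- and 3.44 in Mxi1 +/+, 1.31-fold higher in Mxi1 -/-, and it overlaps the long non-coding RNA gene Gm32499 in RefSeq. The other bitter receptors were dim: Tas2r105 read 0.151 in Mxi1 -/- and 0.193 in Mxi1 +/+, and Tas2r108 read 0.109 and 0.0436, with only the Mxi1 +/+ reading of Tas2r105 above its floor. Tas1r2, the sweet-specific subunit, read 2.52 in Mxi1 -/- and 2.44 in Mxi1 +/+. Its partner Tas1r3, shared by the sweet and umami receptors, read 1.12 in Mxi1 -/- and 0.909 in Mxi1 +/+, above the median in Mxi1 -/- only. The umami-specific subunit Tas1r1 read 0.176 in Mxi1 -/- and 0.237 in Mxi1 +/+, both below the median. The probes of Tas1r2 and Tas1r3 thus read near or above the median in both kidneys, and that of Tas1r1 did not. Tas1r3 overlaps Dvl1, as given above, and which transcript its probe bound was not tested.

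Of the 14 type 1 vomeronasal receptors above both medians, Vmn1r4 and Vmn1r74 were the brightest. Vmn1r74 read 4.92 in Mxi1 -/- and 4.16 in Mxi1 +/+. It was followed by Vmn1r58 (4.09 in Mxi1 -/- and 3.22 in Mxi1 +/+), Vmn1r70 (3.36 and 2.88), Vmn1r84 (2.59 and 3.02) and Vmn1r38 (2.91 and 2.38). The rest were Vmn1r37, Vmn1r71, Vmn1r19, Vmn1r89, Vmn1r47, Vmn1r69, Vmn1r193 and Vmn1r230, all under 2 in both kidneys. The largest difference among the 14 was that of Vmn1r19, at 1.94 in Mxi1 -/- and 1.29 in Mxi1 +/+ (log2 0.59). Vmn1r229 had no value in either array and Vmn1r33 none in Mxi1 +/+.

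The 5 type 2 vomeronasal receptors were all below the median. Vmn2r10 read 0.504 in Mxi1 -/- and 0.427 in Mxi1 +/+, Vmn2r30 read 0.269 and 0.375, and Vmn2r37 read 0.25 and 0.286. Vmn2r7 read 0.115 in Mxi1 -/-, under the floor, and 0.123 in Mxi1 +/+. Vmn2r26 was under the floor in Mxi1 -/- at 0.0203 and read 0.259 in Mxi1 +/+, at least 1.67-fold lower against the floor.

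The genes that carry the receptor signal in sensory cells were mostly dim. Above both medians were 55.5% of all named genes. Of 27 listed genes of olfactory neuron signalling and identity 15 had a named probe, and 4 of these were above both medians. Olfactory marker protein (Omp), a cytoplasmic protein of mature olfactory neurons, was among them at 2.48 in Mxi1 -/- and 2.96 in Mxi1 +/+. The others were Gnb1 (9.32 in Mxi1 -/- and 11.8 in Mxi1 +/+), a G protein beta subunit of many cell types, the transcription factor Ebf1 (1.77 and 1.68) and the receptor transporter Rtp4 (2.81 and 1.53), which is also known as an interferon-inducible gene. Adcy3 read 0.221 in Mxi1 -/- and 0.288 in Mxi1 +/+, the channel subunit Cnga2 read 0.203 and 0.133, and Stoml3, a membrane protein of olfactory cilia, was under the floor in both kidneys. None of the 12 genes above both floors differed by 2-fold, 9 being higher and 3 lower in Mxi1 -/- (median 0.27 on the log2 scale). Over all named genes above both floors 44.8% were higher and that median was -0.04. The 12 leave out 2 genes that were under the floor in Mxi1 -/- only: the chloride channel Ano2 (0.141 in Mxi1 -/- and 0.28 in Mxi1 +/+, at least 1.81-fold lower) and the channel subunit Cngb1 (0.0189 and 0.237, at least 1.53-fold lower).

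Of the vomeronasal genes, the widely expressed Gnai2 read 12.5 in Mxi1 -/- and 9.73 in Mxi1 +/+, the G protein subunit Gng8 read 0.311 and 0.286, and Gnao1 was at -0.0312 and 0.172. Of the taste genes, the channel Trpm5 read 0.207 in Mxi1 -/- and 0.242 in Mxi1 +/+, while the ectonucleotidase Entpd2 (1.42 and 1.79) and the synaptic protein Snap25 (1.85 and 1.68) were above the median. All 3 measured markers of taste and brush cells (Trpm5, Pou2f3 and Dclk1) were below the median in both kidneys, whereas 55.5% of all named genes were above both. Pou2f3 read 0.2 in Mxi1 -/- and 0.107 in Mxi1 +/+, and Dclk1 read 0.193 and 0.326. Of the 4 measured testis markers, from a tissue known to transcribe olfactory receptors, none was above the median in either kidney. Under the floor were 3 of the 4 in Mxi1 -/- and 1 in Mxi1 +/+. The 4 measured olfactory neuron markers summed to 2.98 in Mxi1 -/- and 3.40 in Mxi1 +/+, most of it from Omp.

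Genes of other chemoreceptor families were read for comparison, and 55.5% of all named genes were above both medians. Of 10 measured, 5 were above both medians: the succinate receptor Sucnr1 (7.14 in Mxi1 -/- and 7.45 in Mxi1 +/+), the calcium-sensing receptor Casr (3.75 and 2.65), the amino acid receptor Gprc6a (3.75 and 2.93), the short-chain fatty acid receptor Ffar2 (1.16 and 1.34) and the medium-chain fatty acid receptor Gpr84 (1.04 in both). The trace amine receptor Taar1 read 0.519 in Mxi1 -/- and 0.284 in Mxi1 +/+. Fpr-rs4 read 0.828 in Mxi1 -/- and 0.973 in Mxi1 +/+, Gucy1b2 read 0.987 and 0.705, and Fpr-rs3 read 0.145 and 0.167. The formyl peptide receptor Fpr2 was the only 1 of the 10 past 2-fold, at 0.238 in Mxi1 -/- and 0.109 in Mxi1 +/+, both near the floor.

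Between the kidneys, 455 receptors were above the floor in both arrays and could be given a difference, the log2 intensity in Mxi1 -/- minus that in Mxi1 +/+ after each array was centred on its median. The sign was positive, for a higher reading in Mxi1 -/-, in 289 (63.5%) and negative in 166, and the median was 0.13 (log2). Among all named genes above both floors 44.8% were higher, with a median of -0.04, and among unnamed probes 56.0% were higher, with a median of 0.05. At least 2-fold higher were 26 (5.71%), where 2.66% of all named genes above both floors were, and at least 2-fold lower was none, where 2.13% were. The floor was higher in Mxi1 -/- than in Mxi1 +/+, so this filter admits low receptors that are higher in Mxi1 -/- more readily than the reverse. With the higher floor applied to both arrays, 12 of 421 (2.85%) were at least 2-fold higher and none lower, against 1.42% and 2.2% of all named genes. With no filter, among receptors above 0 in both arrays, 76 were higher and 42 lower by 2-fold. After lowess or quantile normalization, 2 or 3 receptors were at least 2-fold lower and 20 at least 2-fold higher. With no filter and after these normalizations all named genes were not counted, so whether these counts are particular to receptors is not known.

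Most receptors past 2-fold were dim. Of the 26, 24 had a level under 0.5, and in the band below 0.25 the share past 2-fold higher was 14.6% of 82 receptors and 15.3% of 621 other named genes. With the higher floor in both arrays these shares were 1.96% of 51 receptors and 1.52% of 395 other named genes. Between 0.25 and 0.5 it was 8.45% of 142 receptors and 6.79% of 957 other genes, while 0 of those receptors and 5.54% of those genes were 2-fold lower. Between 0.5 and 1 no receptor of 69 passed 2-fold in either direction. The median log2 difference of receptors was 0.34 in the band below 0.25, 0.00 between 0.25 and 0.5, 0.18 between 0.5 and 1, 0.14 between 1 and 2, 0.05 between 2 and 5, and 0.08 at 5 and above. For the other named genes it was 0.29, -0.05, -0.01, -0.04, -0.09 and -0.07 in the same bands, so the receptors' median was the higher of the 2 in each of the 6. Unnamed probes had 0.37, 0.15, 0.09, 0.06, 0.00 and -0.03. Among the 158 receptors above both medians 107 had the higher reading in Mxi1 -/- and 51 the lower (median 0.11), while 40.1% of all named genes at that level were higher; 2 of the 158 (Olfr918 and Vmn1r19) were higher by 1.5-fold or more and none was lower by that much. Of all named genes at that level 2.01% were higher and 4.73% lower by 1.5-fold.

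**Figure D5:**
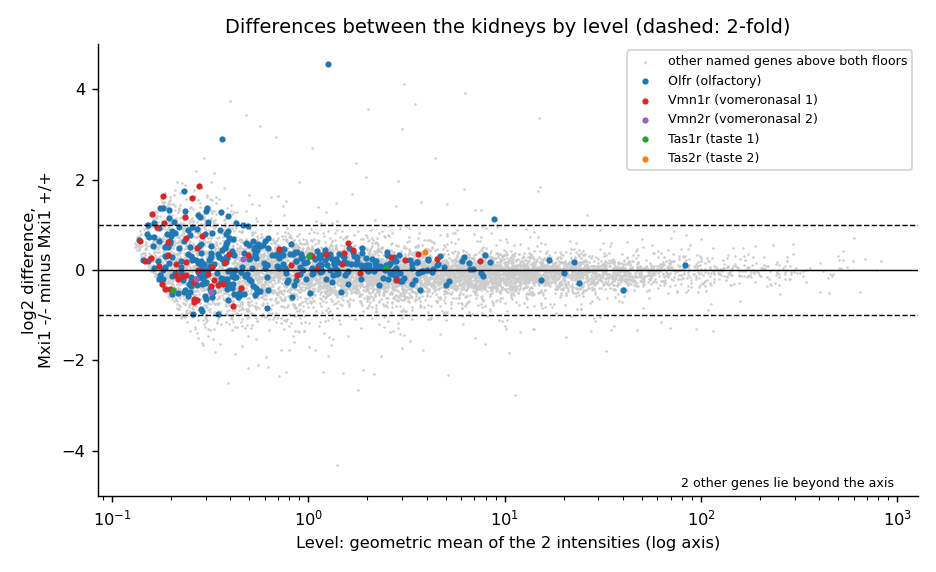
Difference between the kidneys (log2 Mxi1 -/- minus log2 Mxi1 +/+) against level (geometric mean of both intensities, log axis) for receptors above both noise floors, in colour, over the other named genes above both floors, in grey; dashed lines are 2-fold. The 26 receptors on or above the upper line lie mostly at levels under 0.5, with Olfr907 and Olfr918 apart from them at higher levels, and none reaches the lower line.

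At or above the array median in level, 2 receptors passed 2-fold. Olfr907 (probe 19404) stood at 6.12 in Mxi1 -/- and at 0.261 in Mxi1 +/+. This 23.5-fold ratio (log2 4.55) was the largest among the receptors above both floors. Only the Mxi1 -/- reading was above the median, so Olfr907 reached that level through this reading alone. At levels between 1 and 2, where Olfr907 lay, 1.32% of 76 receptors and 1.03% of 1166 other named genes were at least 2-fold higher. The neighbour of Olfr907 on the chromosome, Olfr906, read 0.193 in Mxi1 -/- and 0.212 in Mxi1 +/+. On the other side the next measured gene, Olfr911-ps1, read 2.90 and 3.28. The probes numbered directly before and after it, for Olfr211 and Olfr1339, differed by log2 0.16 and -0.44. Its difference was not seen in these genomic neighbours or probes of adjacent number. Whether probe numbers follow position on the array was not tested, nor was the cause of the difference. Olfr918 (probe 9162) read 13.04 in Mxi1 -/- and 5.92 in Mxi1 +/+, 2.20-fold higher (log2 1.14), while its measured neighbours Olfr916 (0.465 and 0.312) and Olfr920 (0.271 and 0.284) were below the median. The unnamed probe numbered before it read 0.29 in Mxi1 -/- and 0.285 in Mxi1 +/+. The probe numbered after it, for Olfr1095, read 0.102, under the floor, and 0.223. All named genes above both medians were 2-fold higher in 0.353% and 2-fold lower in 1.13% of cases, and Olfr918 was 1 of 158 receptors there.

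Olfr448 (probe 8932) stood at 0.987 in Mxi1 -/- and at 0.133 in Mxi1 +/+, a ratio of 7.46, with the Mxi1 +/+ reading near the floor of 0.102. Its chromosomal neighbour Olfr447 read 0.769 in Mxi1 -/- and 0.764 in Mxi1 +/+, and the probe numbered before it, for Dlgap4, read 5.04 in Mxi1 -/- and 4.75 in Mxi1 +/+. The others past 2-fold were below the median in both kidneys. Among them Vmn1r26 (0.526 in Mxi1 -/- and 0.146 in Mxi1 +/+), Olfr113 (0.427 and 0.127), Vmn1r203 (0.321 and 0.104) and Vmn1r210 (0.441 and 0.146) were past 3-fold, each with an Mxi1 +/+ reading under 0.15. A pseudocount of the array median left 2 of the 26 past 2-fold.

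For receptors with 1 reading at or under its floor only a bound can be given. In 39 the Mxi1 -/- reading was above its floor and the Mxi1 +/+ reading was not, and 20 of these (51.3%) were at least 2-fold higher in Mxi1 -/- by that bound, against 69.6% of all named genes in that position. The largest was Vmn1r46, at 0.5 in Mxi1 -/- and 0.0301 in Mxi1 +/+ (at least 4.86-fold). In 82 the Mxi1 +/+ reading alone was above its floor, and 3 (3.66%) were at least 2-fold lower in Mxi1 -/-, against 10.1% of all named genes in that position. These were Olfr830 (0.0673 in Mxi1 -/- and 0.315 in Mxi1 +/+), Olfr1413 (0.152 and 0.313) and Olfr976 (0.042 and 0.312), with bounds between 2.02 and 2.03. For 36 of the 82 the Mxi1 +/+ reading did not exceed the Mxi1 -/- floor after centring, so no fold is given. The unequal floors fix much of this contrast, since the lowest bound was 1.52 for receptors higher in Mxi1 -/- and 0.681 for those lower. With the higher floor in both arrays, 12 of 73 (16.4%) were at least 2-fold higher and 3 of 43 (6.98%) at least 2-fold lower, against 19.2% and 15.7% of all named genes.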

How the data were processed

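Kidney RNA of 1 Mxi1 -/- and 1 Mxi1 +/+ mouse was measured on 1 single-colour array each. Per the labels' protocols, DNase-treated total RNA was amplified and labelled as biotinylated cRNA for CodeLink arrays. For each of 20289 probes the authors deposited a linear intensity from each array. The sources used here do not say which software made it, or how background was removed and arrays were normalized. The code -9999, in 39 places in Mxi1 -/- and 60 in Mxi1 +/+, was read as missing. The platform annotation named 10349 probes (10208 genes); for the 136 genes with several probes the brightest was kept, and 9940 probes are unnamed.

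No pseudocount was added before taking log2, and values were centred on the array median over 19663 probes above 0 in both arrays, a shift of -0.0007. Folds use centred values. Members and lists were chosen with earlier results of these data known. Genes were named if above both medians, above 1 median and past 4-fold, next to the median line, taste or vomeronasal receptors, or known from kidney; since 158 met the first criterion and 99 were Vmn1r, values are given for the brightest only, a choice made after their values were seen. Neighbour genes came from RefSeq (GRCm38.p6). The log2 calculation was tested on a copy of the Mxi1 +/+ values with known shifts put into a set of genes. That copy lacks the noise between 2 arrays, so the test cannot show how dim readings behave. Python 3.11.15, pandas 2.3.3, NumPy 2.4.6, SciPy 1.17.1, statsmodels 0.14.6 and matplotlib 3.10.9 were used. The number of arrays limits the precision.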

Additional observations from a re-analysis of the deposited data

How the results depend on the processing

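The counts under the noise floor moved with its multiple. At 2 and 5 times the root mean square they were 92 and 252 in Mxi1 -/- and 54 and 189 in Mxi1 +/+, and with the Mxi1 -/- floor used for both arrays the Mxi1 +/+ count was 170. The 158 receptors above both medians became 21 with the line at the 75th percentile and lay between 106 and 158 under the other 4 alternatives. The 26 receptors at least 2-fold higher became 2 with a pseudocount of the array median, 76 with no filter on low values, 2 at or above the median level, 67 at a 1.5-fold line and 6 at a 3-fold line. With the higher floor in both arrays, chosen after seeing the data, 12 were counted, and the 20 bounds of at least 2-fold higher became 12 as well. The count of 0 at least 2-fold lower became 3 after quantile normalization, 2 after lowess, 42 with no filter and 14 at 1.5-fold. With no filter, lowess or quantile normalization no such count was made over all named genes. The median log2 difference of 0.13 became 0.053 with the pseudocount, which shrinks differences by construction, and lay between 0.11 and 0.15 under the other alternatives run on it; centring within level bands was also chosen after seeing the data. The cause of the other movements was not tested. No paired analysis was possible because each group has 1 sample. Dim readings limit these counts: 60.3% of receptors in Mxi1 -/- and 49.8% in Mxi1 +/+ lay within 3 times the floor.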

Other observations

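Receptors with a well-studied ligand or targeted allele in the nose were also looked up, after values had been seen. Olfr160 (M72), a receptor for aromatic ketones, read 2.31 in Mxi1 -/- and 2.06 in Mxi1 +/+, above both medians. Olfr17 (P2) read 0.978 in Mxi1 -/- and 0.739 in Mxi1 +/+, and Olfr73 (mOR-EG), a eugenol receptor, read 0.774 and 0.755. Olfr15 read 0.797 in Mxi1 -/- and 0.487 in Mxi1 +/+, the widest ratio of the 7 looked up. Olfr16 (MOR23), a receptor for lyral that is also known from testis, read 0.273 in Mxi1 -/- and 0.288 in Mxi1 +/+. Olfr1507 (MOR28) read 0.245 in Mxi1 -/- and 0.362 in Mxi1 +/+. Olfr2 (I7), an octanal receptor, read 0.151 in Mxi1 -/- and 0.168 in Mxi1 +/+, the Mxi1 -/- reading under the floor.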
